A study of Homo sapiens with 5 samples.

Results

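MP2-α2/TC cells were compared with MP2-mock cells, and the probe sets measured on the 2 arrays were described across all genes. MIAPaCa2 is an established line of poorly differentiated, grade 3 pancreatic ductal adenocarcinoma (PDAC) that lacks the α2 integrin. MP2-α2/TC cells carried the full-length human α2 coding sequence under the cytomegalovirus promoter, had been panned on collagenI, and were then kept in standard tissue culture under drug selection. MP2-mock cells were the mock transfectants under drug selection. Both were stable populations rather than single clones, both were kept subconfluent, and total RNA of each was read on 1 Affymetrix array. Panning was therefore a further difference between the populations, and it cannot be told apart from the integrin. The series held 5 arrays. Another array, of α2 cells kept on collagenI (MP2-α2/CI), shared its normalization with these, and its values are given only beside a few genes and for chromosome 7.

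Each array carried 54675 probe sets, of which 62 were control probe sets. Of the remaining 54613, 29885 (54.7%) lay above background on either array and 29436 on both. Background was set from 107 odorant receptor probe sets, genes with no known role in these cells, at the 95th percentile of their values, which was 2.25 on the log2 scale for MP2-α2/TC and 2.25 for MP2-mock. Lower values were raised to it, so a difference against a value at this floor is a lower bound. Of the 29885 probe sets, 24734 had exactly 1 gene symbol in the platform annotation, and these named 12715 genes. A fold change below is the log2 difference of MP2-α2/TC minus MP2-mock on a scale inferred from the range of the values. With 1 array a side there was no replicate check, no test was possible, and a difference compares these 2 populations as hybridised.

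The α2 subunit pairs with β1 to form a receptor for fibrillar collagens, and α1, α10 and α11 are the other collagen-binding α subunits. Ligand-bound integrins gather focal adhesion proteins and signal to kinases such as FAK, Src and ERK, which reach gene expression over hours to days. Kallikrein-related peptidases (KLKs) are secreted serine proteases encoded side by side on chromosome 19. NF-κB is the family of dimeric transcription factors that drives inflammatory genes and also its own inhibitors.

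The array could not check the transgene. The study describes the probe sets for ITGA2 (α2) as reading the 3′ untranslated sequence that the transgene lacks, and both lay at the floor on both arrays. All 3 probe sets of ITGA1 and all 3 of ITGA11 were also at the floor on both arrays. ITGA10 read 2.26 in MP2-α2/TC and 2.26 in MP2-mock, just above it. ITGA3, a laminin receptor subunit, read 8.92 in MP2-α2/TC and 9.03 in MP2-mock. The 3 brightest probe sets of ITGB1 (β1) differed by -0.09 to 0.04. Among 15 measured integrin subunits none was 1.5-fold apart by its brightest probe set, and among 23 focal adhesion linkers none was either. Over all genes 0.661% were 1.5-fold higher and 0.747% lower, so finding none in lists this short is near those shares.

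Both arrays carried the profile of the line. KRT8 had a log2 level of 14.18 in MP2-α2/TC cells against 14.18 in MP2-mock cells, KRT18 15.18 on both, and VIM, the mesenchymal filament this line expresses beside its keratins, 15.48 in MP2-α2/TC against 15.54 in MP2-mock. For CDKN2A, 2 of 3 probe sets were at the floor on both arrays. Markers of other cells were above background in part. Blood cell markers were measured for 5 of 12 genes on the array, with the highest at 3.38 in MP2-α2/TC cells against 3.36 in MP2-mock cells, and none of 8 acinar and islet markers was above background. Endothelial markers were measured for 5 of 10 genes, the brightest being ROBO4 at 8.24 in MP2-α2/TC cells against 8.43 in MP2-mock cells. Fibroblast markers were measured for 2 of 10, the brightest being COL1A2 at 12.18 in MP2-α2/TC cells against 11.97 in MP2-mock cells. No gene of these 4 lists was 1.5-fold apart by its brightest probe set, which for so few genes is again near the shares over all genes.

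Most of the transcriptome read alike. The median difference over the 29885 probe sets was 0, and 14993 (50.2%) had the same value on both arrays within 1e-06. The share of such values was 79.7% for levels from 2 to 4 and 23.8% for levels from 12 upward. The 99th percentile of the absolute log2 difference was 0.85 for levels from 4 to 6, 0.66 from 8 to 10 and 0.32 from 12 upward. At every level a 2-fold difference (log2 of 1) lay above the 99th percentile. These percentiles include the identical values and, with 1 array a side, do not measure the noise of an array. The part of these identical values in the results was not tested.

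At least 2-fold, 64 probe sets were higher in MP2-α2/TC cells (0.214% of those measured) and 74 were lower (0.248%). Above 8-fold, 2 were higher and 9 lower. The plot of difference against level shows these probe sets between levels of about 2 and 11. Of the 138, 6 were at the floor on 1 array, 3 of them in MP2-α2/TC and 3 in MP2-mock. Taking for each gene its brightest probe set, 38 of 12715 genes were at least 2-fold higher (0.299%) and 48 at least 2-fold lower (0.378%). At 1.5-fold there were 84 higher (0.661%) and 95 lower (0.747%), and at 1.1-fold 1098 higher (8.64%) and 1110 lower (8.73%). The list counts above and below stand beside these shares over all genes and take each gene by its brightest probe set. Another probe set of the same gene may differ more or less.

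**Figure D1:**
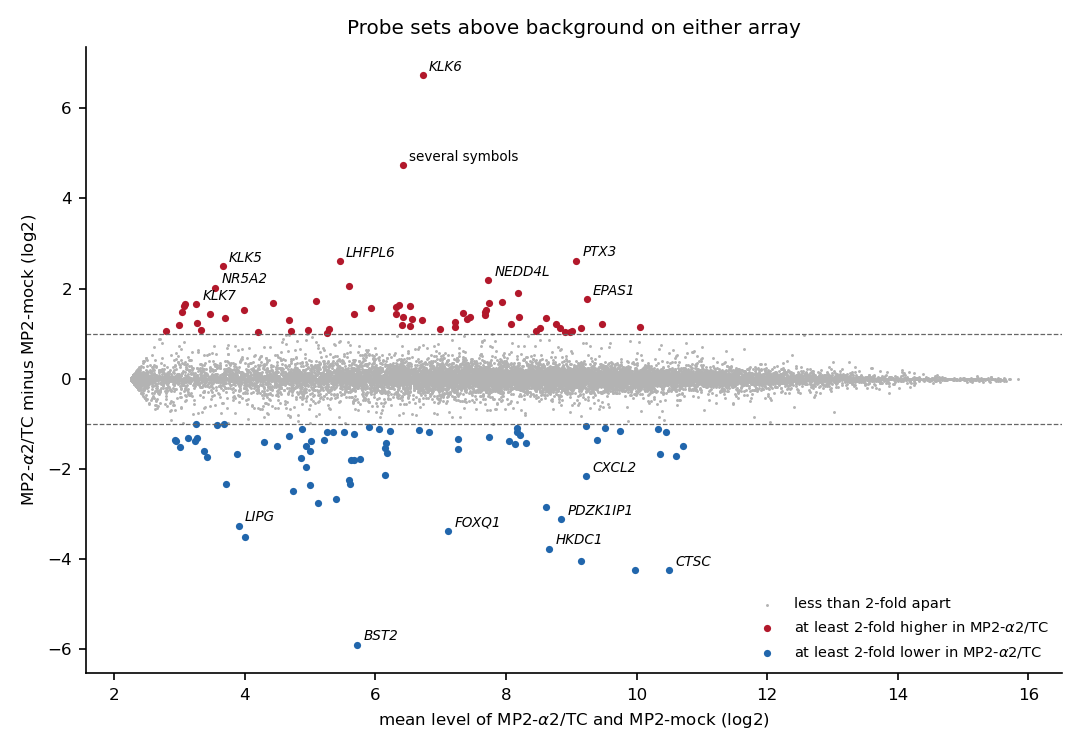
Log2 difference of MP2-α2/TC minus MP2-mock (vertical axis) against the mean log2 level of both arrays (horizontal axis) for 29885 probe sets, with dashed lines at 2-fold. In MP2-α2/TC the 64 red probe sets were above and the 74 blue ones below MP2-mock, with KLK6 at 6.72 and BST2 at -5.89 as the extremes.

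KLK6 stood furthest above MP2-mock of all measured genes. This trypsin-like protease read 10.08 in MP2-α2/TC and 3.36 in MP2-mock, a log2 difference of 6.72 (106-fold) on its only probe set. The array averages a whole population, so fewer expressing cells and less RNA per cell cannot be told apart here or for any gene that follows. KLK5, a trypsin-like protease that activates other KLKs, read 4.90 in MP2-α2/TC and 2.41 in MP2-mock, a difference of 2.49. This was its only probe set, and one that may read related transcripts. KLK7, a chymotrypsin-like member, read 4.08 in MP2-α2/TC and 2.42 in MP2-mock on one probe set (1.66) and 3.20 in MP2-α2/TC against 2.86 in MP2-mock on the other (0.35). For KLK5 and the first KLK7 probe set the MP2-mock value was close to the floor.

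The 3 genes are neighbours in the gene order of chromosome 19, with no other measured gene between them. In MP2-α2/TC only KLK6 reached the upper part of the scale, and in MP2-mock none of the 3 read above 3.36. Of 9 measured kallikreins, these 3 were at least 2-fold higher, against 0.299% over all genes. KLK15 was the only other gene of the list 1.1-fold apart, at 2.51 in MP2-α2/TC cells against 2.84 in MP2-mock cells. The median of the list was 0, as over all genes. In the α2 cells on collagenI the same probe sets read 6.79 for KLK6, 2.44 for KLK5 and 2.54 for KLK7, each below MP2-α2/TC. Which α2 population each of these arrays holds rests on the labels alone, since the array cannot read the transgene. By the brightest probe set, none of 20 matrix metalloproteinases and ADAMs and none of 18 other serine proteases and serpins was 1.5-fold apart. PLAU of the latter list was lower on both probe sets, by -0.54 on the brightest and -0.72 on the other.

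Next to KLK6, a probe set with several gene symbols read 8.79 in MP2-α2/TC and 4.05 in MP2-mock, a difference of 4.74, and is left unnamed. PTX3, a secreted pentraxin that binds microbes and helps to crosslink hyaluronan, read 10.38 in MP2-α2/TC and 7.76 in MP2-mock. HAS3, a plasma membrane hyaluronan synthase, read 8.41 in MP2-α2/TC and 6.94 in MP2-mock on its bright probe set, while its dim one was 4.51 on both. These were the 2 genes at least 2-fold higher among 10 measured members of the hyaluronan list, against 0.299% over all genes. No member of the list was 1.1-fold lower, which for 10 genes is near the 8.73% over all genes.

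**Figure D2:**
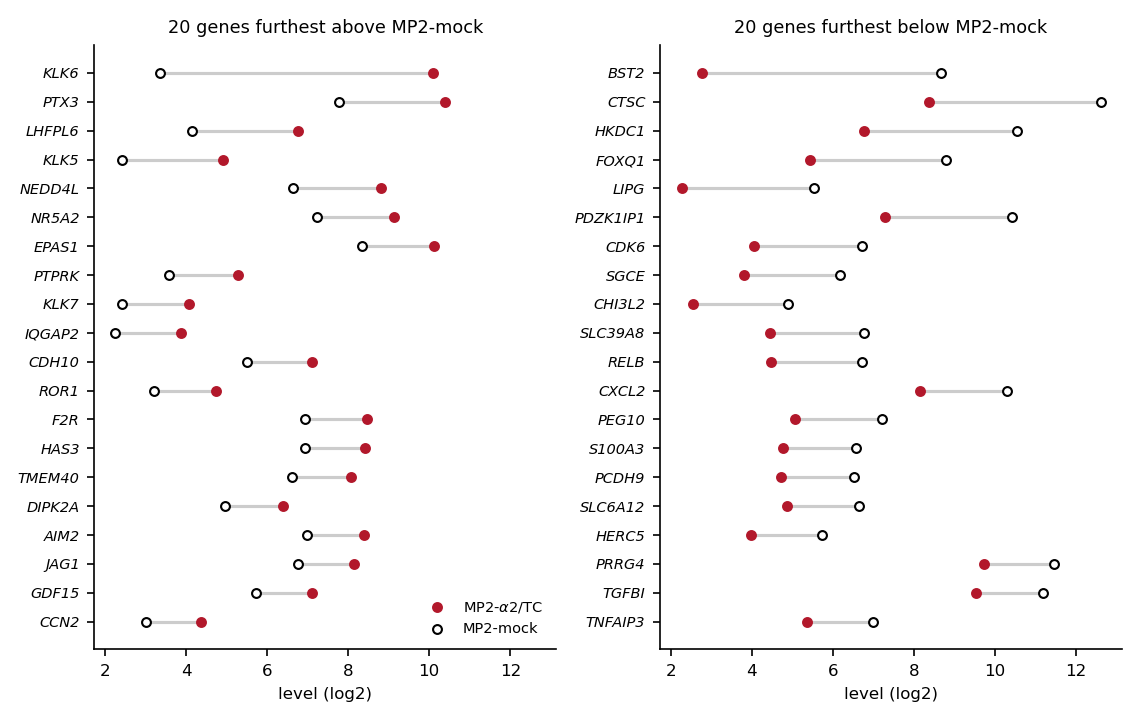
Log2 level (horizontal axis) in MP2-α2/TC (red) and MP2-mock (open) of the 20 genes furthest above (left) and the 20 furthest below MP2-mock (right), each by its brightest probe set. KLK6 and BST2 span the widest gaps, and CTSC, PRRG4, TGFBI, HKDC1, PDZK1IP1 and CXCL2 exceeded 10 in MP2-mock.

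Agreement between probe sets of a gene was used to weigh the differences. Such probe sets read different stretches of one transcript from the same RNA, so they are not replicates of the condition. A 2-fold probe set was found for 95 genes, 44 higher and 51 lower, and no gene had 2-fold probe sets in opposite directions. For 42 of the 95 only 1 probe set was above background. Among the other 53 genes, 20 had 2 or more probe sets at least 2-fold apart (9 higher, 11 lower), and 12 had all of them so. Setting aside the most different probe set of each of the 53, 75 of the 97 others (77.3%) were at least 1.1-fold apart in the same direction and 1 in the opposite one. Among all 18531 probe sets of genes with 2 or more measured, 10.1% were 1.1-fold higher and 7.32% lower. Over all genes, 33 genes with 2 or more measured probe sets had every one at least 1.5-fold apart one way, 16 higher and 17 lower.

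**Figure D3:**
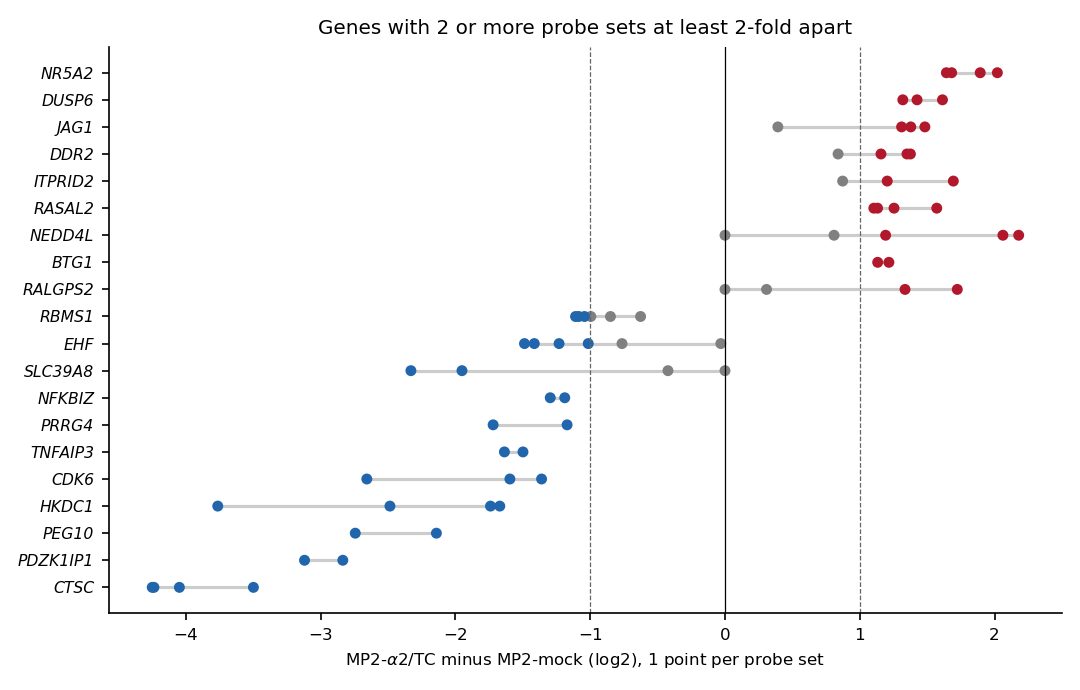
Log2 difference of MP2-α2/TC minus MP2-mock for each measured probe set (points) of the 20 genes with 2 or more probe sets at least 2-fold apart, 9 higher (red) and 11 lower (blue). Grey points are less than 2-fold apart and dashed lines mark 2-fold. All 4 probe sets of CTSC lay at or below -3.50 and all 4 of NR5A2 at or above 1.64.

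CTSC was lower on all of its probe sets by a similar amount. It encodes cathepsin C, a lysosomal dipeptidyl peptidase that activates granule serine proteases. Its 3 bright probe sets read 7.12, 7.85 and 8.37 in MP2-α2/TC, against 11.17, 12.09 and 12.62 in MP2-mock. The fourth was at the floor in MP2-α2/TC and 5.75 in MP2-mock. The differences ran from -4.25 to -3.50, and the brightest was 19.03-fold lower. Of 11 measured cathepsins, CTSC was the only one 1.5-fold apart, with CTSL at 11.83 in MP2-α2/TC cells against 12.26 in MP2-mock cells and the brightest CTSB probe set at 12.16 in MP2-α2/TC against 12.14 in MP2-mock. The protease legumain (LGMN) and the cystatins CST3 and CSTB, which complete the list of 14, were not 1.5-fold apart either.

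HKDC1, a hexokinase-like enzyme that can phosphorylate glucose, was lower on all 4 probe sets (-3.76 to -1.67), and the brightest read 6.78 in MP2-α2/TC and 10.54 in MP2-mock. The other hexokinases did not follow it. HK1 read 12.20 on both arrays, and HK2 read 8.87 in MP2-α2/TC and 8.63 in MP2-mock. In the glycolysis list, HKDC1 and ALDOC, a brain-enriched aldolase at 2.75 in MP2-α2/TC cells against 3.76 in MP2-mock cells, were the 2 of 20 measured genes at least 1.5-fold apart.

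PDZK1IP1, a small membrane protein of epithelial cells, read 7.29 and 7.198 on its 2 probe sets in MP2-α2/TC, against 10.41 and 10.03 in MP2-mock. PRRG4, a vitamin K-dependent membrane protein, was lower on both probe sets (-1.72 and -1.17). Of the 4 measured probe sets of SLC39A8, a zinc and manganese importer, 2 had differences of -2.33 and -1.95, and the other 2, at or near the floor, of -0.42 and 0. RBMS1, an RNA-binding protein, had 3 of 6 probe sets at least 2-fold lower, and all 6 lay between -1.11 and -0.63. EHF, an ETS factor of epithelial cells, had 4 of 6 at least 2-fold lower. Its brightest read 9.96 in MP2-α2/TC and 11.45 in MP2-mock. EHF was the only 1.5-fold gene among 18 measured epithelial genes, the median of which was 0.

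CDK6, a kinase that phosphorylates the retinoblastoma protein in G1, was lower on all 3 of its measured probe sets, out of 7 on the array. They read 4.06, 4.20 and the floor in MP2-α2/TC, against 6.72, 5.79 and 3.61 in MP2-mock. Its close relative CDK4 read 12.85 in MP2-α2/TC and 12.97 in MP2-mock. Of 26 measured genes of the G1 switch, only CDK6 and CDKN1A, the p21 inhibitor of cyclin-dependent kinases, at 8.14 in MP2-α2/TC cells against 7.44 in MP2-mock cells, were 1.5-fold apart. None of 33 mitosis genes was, and of 32 DNA replication genes only GINS4 was (13.05 in MP2-α2/TC, 12.09 in MP2-mock), on a gene with another probe set at 0.04.

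Several large decreases rested on 1 probe set. BST2 (tetherin), a membrane protein that holds back budding viruses and is induced by interferon, read 2.77 in MP2-α2/TC and 8.67 in MP2-mock, 59.5-fold lower. FOXQ1, a forkhead factor studied in epithelial-mesenchymal transition, read 5.43 in MP2-α2/TC and 8.80 in MP2-mock. LIPG, the endothelial lipase, read 2.28 in MP2-α2/TC and 5.53 in MP2-mock. For LIPG and BST2 the MP2-α2/TC value was close to the floor. TGFBI, a secreted matrix protein induced by TGF-β, read 9.52 in MP2-α2/TC and 11.19 in MP2-mock. Lower too were CHI3L2 (-2.34), a chitinase-like protein, S100A3 (-1.80), a calcium-binding protein, SLC6A12 (-1.77), the betaine and GABA transporter, and HERC5 (-1.76), the main ligase for the ubiquitin-like protein ISG15.

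PEG10 and SGCE are imprinted genes that lie next to each other on chromosome 7, both normally read from the paternal copy. PEG10, a domesticated retrotransposon gene, read 3.75 and 5.07 on its probe sets in MP2-α2/TC, against 6.49 and 7.21 in MP2-mock. SGCE, a sarcoglycan, read 3.82 in MP2-α2/TC and 6.17 in MP2-mock. They were the 2 at least 2-fold lower among 16 measured imprinted genes, against 0.378% over all genes. PHLDA2, on chromosome 11, was the other one past 1.5-fold, at 8.73 in MP2-α2/TC cells against 9.56 in MP2-mock cells.

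Inflammatory genes formed a second group among those lower in MP2-α2/TC. Stretches of the promoter windows of 6 of them, from RefSeq (GRCh38.p14), are shown. They hold the κB consensus, the site that NF-κB dimers bind, within 250 bases before the start site. All 6 genes had a 2-fold lower probe set. The 6 were picked by hand for their inflammatory role, and CD83, with 5 matches, was not among them. Other lower genes held a match there too and are not shown, among them BST2, CD83, CHI3L2, PDZK1IP1, RBM47, SLC39A8 and WNT4. The stretches are written 5′ to 3′ on the gene's strand, with the matches in capitals and 25 bases on each side.
CXCL2, chr4:74099238-74099298, minus strand: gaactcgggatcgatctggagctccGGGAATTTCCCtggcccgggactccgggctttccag
CXCL3, chr4:74038733-74038793, minus strand: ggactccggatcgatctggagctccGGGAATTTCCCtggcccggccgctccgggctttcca
CXCL5, chr4:73998733-73998793, minus strand: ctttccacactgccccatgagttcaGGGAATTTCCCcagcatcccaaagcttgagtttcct
TNFRSF9, chr1:7940878-7940938, minus strand: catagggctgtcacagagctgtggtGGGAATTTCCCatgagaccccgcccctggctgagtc
TNFAIP3, chr6:137867167-137867238, plus strand: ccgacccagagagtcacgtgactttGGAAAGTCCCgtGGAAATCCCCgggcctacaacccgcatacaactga
NFKBIZ, chr3:101827742-101827801, plus strand: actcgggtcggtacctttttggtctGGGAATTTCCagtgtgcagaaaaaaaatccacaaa
The consensus was searched on both strands, and overlapping matches on opposite strands were merged in the capitals. For the counts, whole windows were used, from 250 bases before to 50 after the start site. The consensus was found in windows of 15 of the 44 lower genes with a window (34.1%) and of 10 of 37 higher genes (27.0%). It was found for 17.4% of the 10294 measured genes with a window and in 11.3% of all 35116 windows. A match is a string of letters and not a site shown to be bound. RELB and IER3 had no window in the table.

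CXCL2, CXCL3 and CXCL5 are chemokines that attract neutrophils and lie next to each other on chromosome 4. CXCL2 read 8.15 in MP2-α2/TC and 10.31 in MP2-mock, on a probe set that may read related transcripts. CXCL3 read 4.32 in MP2-α2/TC and 5.69 in MP2-mock. For CXCL5, probe sets at 9.95 and 8.73 in MP2-α2/TC, against 10.88 and 10.07 in MP2-mock, were lower, and another near the floor was not apart (-0.02). CXCL1, of the same cluster, was 1.80-fold lower at 11.38 in MP2-α2/TC cells against 12.23 in MP2-mock cells. The bright probe set of CXCL8 read 11.89 in MP2-α2/TC and 11.86 in MP2-mock, and its other one 9.36 in MP2-α2/TC against 9.65 in MP2-mock (-0.29).

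Among the genes of the pathway itself, RELB, an NF-κB subunit of the noncanonical branch, read 4.47 in MP2-α2/TC and 6.71 in MP2-mock. TNFAIP3 (A20), a feedback inhibitor, was lower on both probe sets (-1.64 and -1.50), as was NFKBIZ, an inducible nuclear cofactor (-1.30 and -1.19). Other members differed less. NFKB1 read 9.65 in MP2-α2/TC and 9.74 in MP2-mock, RELA 9.54 in MP2-α2/TC against 9.62 in MP2-mock, and NFKBIA, the IκBα inhibitor, 12.32 in MP2-α2/TC against 12.61 in MP2-mock. Over 20 measured genes of the NF-κB list, 11 were at least 1.1-fold lower and none higher, with a median of -0.18, against 8.73% lower and 8.64% higher and a median of 0 over all genes.

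Of 16 measured chemokines and cytokines, 6 were at least 1.5-fold lower and 1 higher, with a median of -0.14, against 0.747% lower and 0.661% higher over all genes. CXCL1, CXCL2, CXCL3 and CXCL5 were 4 of the 6, and the median of the 12 others was -0.0038. IL1A, an alarmin cytokine, read 2.26 in MP2-α2/TC and 3.64 in MP2-mock, with a second probe set equal on both arrays. CSF3, the granulocyte growth factor, read 6.55 in MP2-α2/TC and 7.33 in MP2-mock. TNFSF10 (TRAIL), a death ligand, was the gene above MP2-mock, with probe set differences of 0.35, 0.95 and 1.29. TNFRSF9 (4-1BB), a costimulatory receptor, at 3.75 in MP2-α2/TC cells against 5.24 in MP2-mock cells, and CD83, at 4.31 in MP2-α2/TC against 5.43 in MP2-mock, were lower as well.

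Of 30 measured interferon-stimulated genes, 2 were at least 2-fold lower (BST2 and OASL, an antiviral 2′-5′-oligoadenylate synthetase-like protein, at 2.58 in MP2-α2/TC cells against 4.18 in MP2-mock cells) and none 2-fold higher. Over all genes 0.378% were 2-fold lower and 0.299% higher. At 1.1-fold, 10 of the 30 were lower and 1 higher, against 8.73% lower and 8.64% higher over all genes. The median of the list was -0.08. IFIT3 read 7.88 in MP2-α2/TC and 8.59 in MP2-mock, and IFITM1 11.55 in MP2-α2/TC against 11.96 in MP2-mock, while IFI16 was higher, at 9.08 in MP2-α2/TC against 8.77 in MP2-mock.

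Of 18 genes of HLA class I and antigen processing, 10 were at least 1.1-fold lower and 1 higher, and none was 1.5-fold apart, with a median of -0.15. Over all genes 8.73% were 1.1-fold lower and 8.64% higher. TAP1, a subunit of the peptide transporter, read 7.74 in MP2-α2/TC and 8.30 in MP2-mock. The 3 probe sets of HLA-B lay between -0.54 and -0.37 and the 4 of HLA-C between -0.47 and -0.33, on probe sets that class I genes can share. Of 29 cholesterol and fatty acid synthesis genes, 15 were 1.1-fold lower and 1 higher, set against the same shares over all genes. Their median was -0.15, and none was 1.5-fold apart by its brightest probe set. DHCR7, the last enzyme of cholesterol synthesis, read 10.38 in MP2-α2/TC and 10.86 in MP2-mock. SREBF2, the transcription factor of the pathway, read 7.46 in MP2-α2/TC against 7.84 in MP2-mock on its brightest probe set. The 3 probe sets of SREBF2 ran from -0.79 to -0.29. HSD17B7 was the gene on the other side, at 10.33 in MP2-α2/TC against 9.79 in MP2-mock.

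Among 48 pathway lists examined in all, the median lay within 0.05 of 0 in 40, above 0.05 in 1 and below -0.05 in 7, and 20 lists held no gene 2-fold apart. The 14 lists in the plot were chosen after their values were seen.

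**Figure D4:**
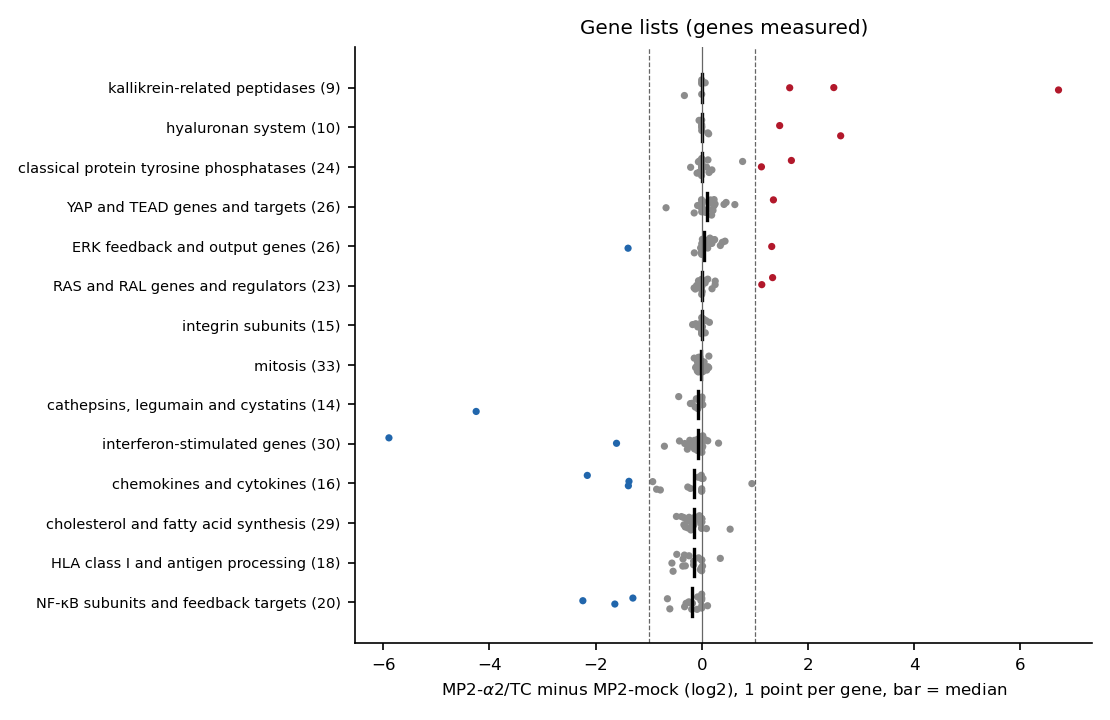
Log2 difference of MP2-α2/TC minus MP2-mock for the measured genes (points) of 14 gene lists, with the number measured in brackets, black bars at the medians and dashed lines at 2-fold. Medians ran from -0.18 for the NF-κB list to 0.09 for YAP and TEAD genes and targets, and kallikreins held the furthest point at 6.72.

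Among genes higher in MP2-α2/TC, NR5A2 was higher on all of its probe sets. This orphan nuclear receptor (LRH-1) supports acinar identity in the pancreas. Its 4 probe sets read 4.55, 7.18, 8.58 and 9.13 in MP2-α2/TC, against 2.53, 5.54, 6.89 and 7.24 in MP2-mock, with differences from 1.64 to 2.02. By the brightest probe set, NR5A2 was the only one of 26 measured nuclear receptors 1.5-fold apart. RXRB differed by -0.39 on its brightest, and its 3 probe sets ran from -0.60 to 0.

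Of 26 measured ERK feedback and output genes, 9 were 1.1-fold higher and 2 lower, against 8.64% higher and 8.73% lower over all genes, with a median of 0.04. At 2-fold, DUSP6 was the only one higher and IER3 the only one lower. DUSP6, a phosphatase that inactivates ERK and is induced by it, read 7.34, 7.23 and 7.03 in MP2-α2/TC, against 5.72, 5.91 and 5.61 in MP2-mock. RASAL2, a RAS GTPase-activating protein, was higher on all 4 measured probe sets (1.105 to 1.57), the 4 others on the array being at the floor. RALGPS2, an exchange factor for RAL and the neighbour of RASAL2 in gene order on chromosome 1, had 2 of 4 measured probe sets at least 2-fold higher, the others being 0.31 and 0. Among the smaller differences of the ERK list, DUSP5 read 8.78 in MP2-α2/TC and 8.34 in MP2-mock, and SPRY1 10.34 in MP2-α2/TC against 9.99 in MP2-mock. IER3, an immediate early gene that NF-κB also induces, read 7.35 in MP2-α2/TC against 8.74 in MP2-mock.

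DDR2, a receptor tyrosine kinase that binds fibrillar collagen, had 3 of 4 probe sets at least 2-fold higher. They read 9.29, 10.64, 8.89 and 5.87 in MP2-α2/TC, against 7.94, 9.48, 7.51 and 5.03 in MP2-mock. ROR1, a receptor for WNT5A, was higher on all 3 probe sets (0.73 to 1.53). By the brightest probe set, DDR2 and ROR1 were the 2 at least 1.5-fold apart among 24 measured receptor tyrosine kinases. FGFR1 differed by -0.18 on its brightest, and its 6 measured probe sets ran from -0.97 to 0. Over all genes 0.661% were 1.5-fold higher and 0.747% lower.

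JAG1, a Notch ligand, had 3 of 4 measured probe sets at least 2-fold higher, the brightest at 8.13 in MP2-α2/TC cells against 6.75 in MP2-mock cells. On collagenI the same probe set read 4.62. By the brightest probe set, no other of 28 measured Notch genes was 1.5-fold apart. HES1 of that list was higher by 0.18 on its brightest probe set and by 0.73 on its other measured one. NEDD4L, a ubiquitin ligase of membrane proteins, had 3 of 5 measured probe sets at least 2-fold higher, with differences of 1.19, 2.06 and 2.18, the others being 0.81 and 0. ITPRID2, an actin-linked protein, read 10.07 in MP2-α2/TC and 8.86 in MP2-mock on its brightest probe set. BTG1, an antiproliferative cofactor, was higher on both measured probe sets (1.22 and 1.13).

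For some of the following genes, such as EPAS1 and F2R, the increase rested on 1 bright probe set. EPAS1 (HIF-2α), a hypoxia factor, read 10.12 in MP2-α2/TC and 8.35 in MP2-mock, with a dim second probe set at 3.53 on both. ADM, a hypoxia target, read 8.27 in MP2-α2/TC and 7.29 in MP2-mock, but these were the only 2 of 22 hypoxia genes 1.5-fold apart, and the median of the list was 0. LHFPL6 was higher on both probe sets, by 2.61 and 0.82. PTPRK (1.69) and PTPN3 (1.13 and 0.94), both tyrosine phosphatases, were at least 2-fold higher by their brightest probe set. PTPRG was 1.5-fold higher by its brightest probe set (0.77), with 0.43 and 0.04 on its other measured ones. Among the 24 measured members of that family none was 1.5-fold lower, which is near the share over all genes. Over all genes 0.661% were 1.5-fold higher and 0.747% lower. F2R, the thrombin receptor, read 8.46 in MP2-α2/TC and 6.93 in MP2-mock, with a second probe set equal at 4.99. AIM2, a sensor of cytosolic DNA, read 8.38 in MP2-α2/TC and 6.98 in MP2-mock.

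CCN2 (CTGF), a matricellular protein driven by YAP and TGF-β, read 4.37 in MP2-α2/TC and 3.02 in MP2-mock. Of 26 measured YAP and TEAD genes and targets, 11 were 1.1-fold higher and 2 lower, with a median of 0.09, against 8.64% higher and 8.73% lower over all genes. The list holds components of the pathway as well as targets, and WWTR1, LATS1 and LATS2 were among the 11. Without YAP1, WWTR1, the TEADs and the LATS kinases, 8 of 18 were higher and 1 lower. AJUBA, a LIM adaptor, read 8.15 in MP2-α2/TC and 7.53 in MP2-mock, and TEAD2 was the one 1.5-fold lower, at 7.51 in MP2-α2/TC against 8.18 in MP2-mock. Over their measured probe sets, AJUBA ran from 0 to 0.85 and TEAD2 from -0.67 to 0. Among 29 matrix proteins, COL5A2 (11.36 in MP2-α2/TC, 10.66 in MP2-mock), COL13A1 (8.55 in MP2-α2/TC against 7.82 in MP2-mock) and MATN2 (5.36 in MP2-α2/TC against 4.50 in MP2-mock) were also 1.5-fold higher. FBLN1 (4.96 in MP2-α2/TC against 5.61 in MP2-mock) and ECM1 (2.29 in MP2-α2/TC against 2.96 in MP2-mock) were 1.5-fold lower. The measured probe sets ran from 0.40 to 0.70 for COL5A2, from 0 to 0.73 for COL13A1 and from -0.65 to 0 for FBLN1. Over all genes 0.661% were 1.5-fold higher and 0.747% lower.

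Agreement was poor for some genes. ATP8B1, a lipid flippase, read 4.72 in MP2-α2/TC and 4.98 in MP2-mock on its brighter probe set, and 3.90 in MP2-α2/TC against the floor in MP2-mock on the other. It was the gene with a 2-fold probe set and another 1.1-fold the opposite way. For LARP1, an RNA-binding protein of the TOR pathway, a dim probe set was -1.01 apart, and the 3 others, above 10 on both arrays, lay between -0.22 and -0.02. For PCDH9, a protocadherin, 1 of 3 was -1.79 and the others, near the floor, were -0.03 and -0.07. Probe sets at least 2-fold apart without 1 gene symbol numbered 7 of 138.

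The position of the genes showed a pattern at a smaller size of difference. On chromosome 7, 125 of 594 measured genes (21.04%) were at least 1.1-fold lower in MP2-α2/TC and 31 (5.22%) were higher. On the 22 other chromosomes compared, the lower share ran from 4.57% to 12.1% (chromosome 11) and the higher share from 3.83% to 13.5%. Over the 12091 genes of these chromosomes together, 8.15% were lower and 8.82% higher. The lower genes of chromosome 7 had a median difference of -0.24, so that most were far from 2-fold. Leaving out the 4 genes with a 2-fold probe set (CDK6, PEG10, SGCE and GLCCI1), 121 of 590 were lower and 31 higher.

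In the gene order of chromosome 7, cut into runs of 50 measured genes and a last one of 44, lower genes outnumbered higher ones in 11 of 12 runs. The exception was the run from ORC5 to ZNF800, with 12 higher and 5 lower. Among the larger differences were MAD1L1, a spindle checkpoint protein, at 7.89 in MP2-α2/TC cells against 8.69 in MP2-mock cells, UPP1, a uridine phosphorylase, at 8.62 in MP2-α2/TC against 9.36 in MP2-mock, and STX1A, a syntaxin, at 7.65 in MP2-α2/TC against 8.32 in MP2-mock. FSCN1, an actin-bundling protein, went the other way, at 8.81 in MP2-α2/TC against 7.85 in MP2-mock.

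The share differed with level and base composition. For genes at 9 or above, 29.3% of 222 on chromosome 7 were lower, against 7.76% of 4526 elsewhere. Below 6, 7.61% of 197 genes on chromosome 7 were lower and 4.57% higher, against 5.61% of 3903 lower and 4.87% higher elsewhere, which was little apart. Split into 3 equal groups by the GC content of the promoter windows, 14.5%, 22.1% and 26.7% of chromosome 7 genes from low to high GC were lower, against 6.53%, 8.74% and 9.61% elsewhere. Counted over probe sets rather than genes, 16.95% on chromosome 7 were lower and 5.71% higher. The α2 cells on collagenI, set against the same MP2-mock array, had 26.6% of chromosome 7 genes lower and 7.58% higher. In that comparison, which shares the mock array, the lower share of the other chromosomes ran from 4.57% to 18.6% (chromosome 22) and their higher share from 3.24% to 25.1%. The cause of this pattern was not tested.

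**Figure D5:**
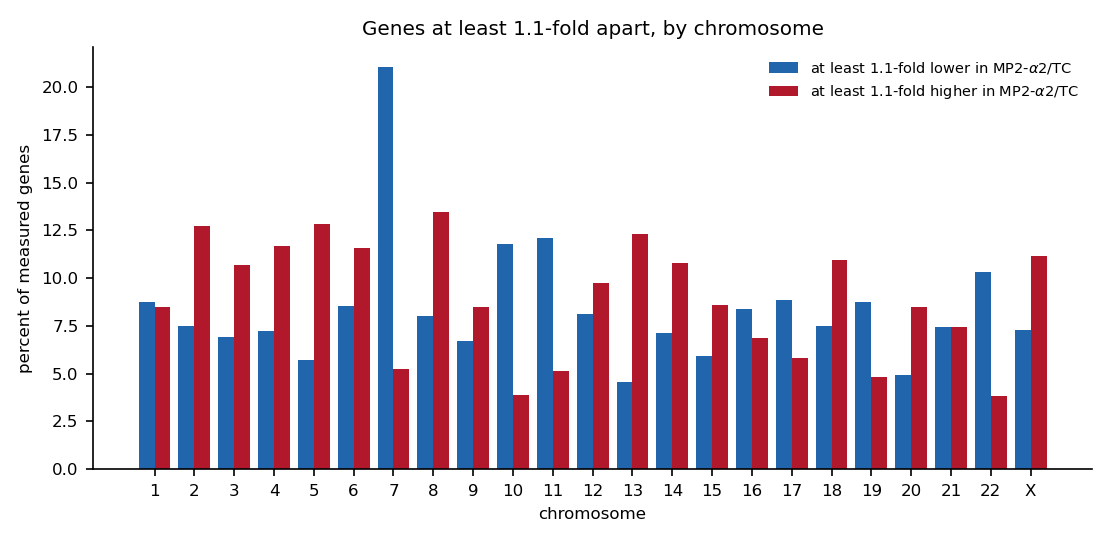
Percent of measured genes (vertical axis, from 0) at least 1.1-fold lower (blue) or higher (red) in MP2-α2/TC relative to MP2-mock, by chromosome (horizontal axis), 1 probe set per gene. Chromosome 7 stands out with 21.04% lower and 5.22% higher.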

How the data were processed

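The values that the authors deposited had been normalized by them, 1 for every probe set and array, and were read as log2, a base inferred from the range between 2.24 and 15.84. GCRMA and MAS5 are named in the submitters' processing notes, with neither a role nor a version. Columns were matched to samples by their labels, and MP2-α2/TC and MP2-mock were used throughout, MP2-α2/CI beside some genes and for chromosome 7, and the other 2 arrays only in 1 quantile normalization over 5 arrays. Arrays were taken as normalized together because they shared a minimum. The 62 control probe sets were left out. Gene symbols came from the platform annotation (1 symbol for 41091 probe sets, several for 1801, none for 11721), brought up to date through RefSeq, which also gave gene order and promoter windows (250 bases before to 50 after the start site).

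Values were raised to the floor, differences were taken, and no test was run. A gene was represented by its probe set with the highest mean over both arrays. Named genes were the 20 furthest above and the 20 furthest below MP2-mock, those with 2 or more probe sets at least 2-fold apart one way, list members at least 1.5-fold apart or defining the list, and those of the study's own interest. CXCL8, CTSB, HK1 and other relatives were chosen after their values were seen. So were genes smaller than 1.5-fold by the brightest probe set, such as IFITM1, DHCR7, DUSP5, HES1, FGFR1, RXRB and PLAU. The genes of the chromosome 7 paragraphs and the poorly agreeing LARP1, PCDH9 and ATP8B1 were chosen in the same way. The members and gene lists were chosen with earlier results of these data known. The arithmetic of the comparison was checked by adding known differences to simulated arrays without noise. That check says nothing about the spread between arrays. Alternatives were another floor or none, detection on both arrays, centring, quantile normalization, leaving out probe sets with the suffix _x_at or _s_at, other fold sizes and the median of a gene's probe sets. Python 3.11.15, numpy 2.4.6 and pandas 2.3.3 were used. The number of arrays limits the precision.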

Additional observations from a re-analysis of the deposited data

How the results depend on the processing

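No paired analysis was possible because each population had 1 array. Of the counts of 64 higher and 74 lower probe sets, those under another floor, none, detection on both arrays, centring or quantile normalization stayed within 1.5 times. Without _x_at and _s_at probe sets they were 41 and 44. A 1.5-fold threshold gave 172 and 179, and a 3-fold one 20 and 31. By gene they were 38 and 48 with the brightest probe set and 28 and 37 with the median of the probe sets. Genes with every measured probe set at least 1.5-fold apart one way, including those with only 1, numbered 121, against 54 at 2-fold and 454 at 1.2-fold. Over 95 named genes no alternative reversed a difference that was 2-fold by the brightest probe set. Some genes with a 2-fold probe set, such as ATP8B1 and LARP1, were less than 2-fold by the brightest. For ATP8B1 the brightest gave -0.26 and the median of the probe sets 0.69, the opposite sign. Of 729 recomputed values, 90 moved by 0.1 or more, 41 of them with the median of the probe sets. Of 407 recomputed list medians, 8 moved by that much. The share of chromosome 7 genes that were lower, an alternative set added after seeing the data, ran from 16.2% to 25.4% and that of higher ones from 4.35% to 6.03%. Between 3′ and 5′ control probe sets the log2 difference was -0.95 in MP2-α2/TC and -1.004 in MP2-mock for ACTB, and 0.20 in MP2-α2/TC and 0.20 in MP2-mock for GAPDH. No control probe set was 2-fold apart.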
